A study of Mus musculus with 32 samples.

Results

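The regions described here are RNA polymerase II peaks that were listed in both knockout lines of a mouse embryonic stem (ES) cell study and not in the wild type. Chromatin immunoprecipitation followed by sequencing (ChIP-seq) had been carried out in J1 cells, an ES cell line, that were wild type, Taf5l-KO or Taf6l-KO. A region is a member when it is a peak of total RNA polymerase II (RNAP) in Taf5l-KO on chromosomes 1 to 19, shares at least 1 bp with an RNAP peak of Taf6l-KO and shares none with an RNAP peak of wild-type cells. This gave 2982 members among the 19758 Taf5l-KO peaks on these chromosomes, or 15.1%. The 26 peak lists of the series hold 390088 peaks in all. The other lists read at the members are those of H3K4me3, Oct4, H3K9ac, Myc and polymerase phosphorylated on serine 5 (RNAP-ser5) or serine 2 (RNAP-ser2) of its C-terminal repeats, each in the 3 genotypes, and those of TAF5L and TAF6L carrying a Flag-Biotin (FB) tag, pulled down with streptavidin from 2 lines each, with cells holding only the biotin ligase BirA as their control. The file headers name the input of each knockout by 1 line, so each knockout stands for the line or lines sampled here. All positions are in the mouse build mm9, and no gene is named, since no gene annotation of mm9 was at hand.

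TAF5L and TAF6L are subunits of SAGA-type coactivator complexes, which carry histone-modifying enzymes and help recruit the transcription machinery to promoters. RNA polymerase II gathers at promoters, where serine 5 of its C-terminal repeats is phosphorylated as transcription starts, and it takes up serine 2 phosphorylation as it moves into the gene body. H3K4me3, trimethylated lysine 4 of histone H3, marks the start sites of active and poised genes, H3K9ac marks active promoters, and Oct4 is a pluripotency factor that binds mainly enhancers in ES cells.

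A peak list states where signal passed the authors' threshold, so a region without a wild-type peak is one where none was listed, not one without polymerase. Sequencing differed between the 3 RNAP libraries in the direction of the rule. The wild-type library held 5174150 unique tags, Taf5l-KO 15865460 and Taf6l-KO 7236644, and 80.1%, 53.2% and 75.1% of all tags were duplicates. After the authors' scaling, peaks were called at depths of 5174150, 6245652 and 5923469 tags. The wild-type RNAP list was still the longest of the 3, with 28007 peaks on chromosomes 1 to 19 against 19758 in Taf5l-KO and 25589 in Taf6l-KO. The part of the difference in sequencing in the gain was not tested. The shallowest of the other libraries was RNAP-ser5 in Taf6l-KO, with 1702363 unique tags. There was 1 library per antibody and genotype, so no test between genotypes was possible. The intervals given with shares are exact (Clopper-Pearson) 95% intervals that reflect counting error only, and peaks close to each other are not independent observations. Within a genotype, all 7 antibodies were called against an input of the same size, 7771755, 6245652 and 5923469 tags for wild type, Taf5l-KO and Taf6l-KO. The fold enrichments below are the authors' value per peak, the pileup over the local background, and are used only to describe and rank peaks within a list.

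The members were mostly weak and narrow peaks. Their median fold enrichment in Taf5l-KO was 4.47, with a lowest value of 2.97, quartiles of 3.98 and 5.16 and a highest of 9.96. The members were selected on the presence or absence of peaks in the 3 RNAP lists, so their RNAP values are a description. The 14259 Taf5l-KO peaks that were shared with wild type had a median of 5.20, and the 2517 listed in Taf5l-KO only had a median of 3.96. Members thus lay between these groups in strength. The same order held for width. The median width of the members was 373 bp, with quartiles of 233 and 610 bp and a range from 141 to 5148 bp, against 704 bp for the shared peaks and 281 bp for those in Taf5l-KO only. A −log10 q of at least 5 in Taf5l-KO was reached by 459 members (15.4%, 14.1 to 16.7), by 45.5% of the shared peaks and by 1.47% of the Taf5l-KO only peaks.

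**Figure D1:**
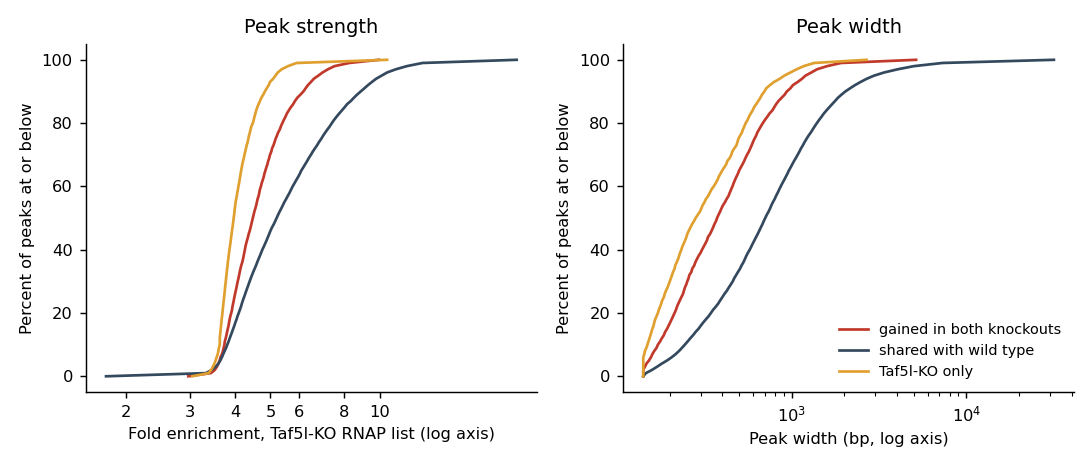
Cumulative share of RNAP peaks (percent, vertical axes) by fold enrichment in the Taf5l-KO list (left, log axis) and by width in bp (right, log axis), for the members, the peaks shared with wild type and the peaks in Taf5l-KO only. The curve of the members runs between the other groups, with medians of 4.47 and 373 bp.

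Seen from the Taf6l-KO list, 2993 peaks met the members. Their median fold enrichment was 4.67 against 4.94 over all 25589 Taf6l-KO peaks, and their median width was 427 bp against 526 bp. The overlap between the knockouts was seldom marginal. The Taf6l-KO peaks covered a median of 79.7% of a member, or 233 bp, at least 50% of the width in 2247 members (75.4%) and the whole of it in 730 (24.5%). Some Taf6l-KO peaks reached further than the member: 187 of the 2993 also overlapped a wild-type RNAP peak beside it, which concerned 193 members (6.47%). Of the 5499 Taf5l-KO peaks with no wild-type overlap, the 2982 members made up 54.2% (52.9 to 55.6).

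At the edge of the rule, the member with the smallest Taf6l-KO overlap, chr12:84920372-84920539, shared 2 bp and had a fold enrichment of 4.58. The member nearest to wild-type signal, chr2:142727048-142727249 (5.31), ended directly beside a wild-type peak of fold enrichment 3.55. Just outside lay chr16:16912001-16912190 (4.33) and chr10:84016985-84017401 (6.29), which shared 1 and 2 bp with wild-type peaks of 3.98 and 3.67. A Taf5l-KO only peak, chr13:3360325-3360651 (3.96), adjoined a Taf6l-KO peak without sharing a base.

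Of the 10 strongest members, most carried H3K4me3, as most RNAP peaks did. The first was chr2:158235470-158236192, with an RNAP fold enrichment of 9.96 in Taf5l-KO and 9.68 in Taf6l-KO and the nearest wild-type RNAP peak 48066 bp away. H3K4me3 peaks covered it in wild-type cells (14.5), Taf5l-KO (15.9) and Taf6l-KO (14.1). No wild-type peak of either phosphorylated form was listed there, while RNAP-ser5 had 5.59 and 6.11 and RNAP-ser2 had 4.99 and 5.76 in the Taf5l and Taf6l knockouts. It also held a wild-type H3K9ac peak (5.03). This region thus had H3K4me3 in every genotype and all 3 polymerase antibodies in the knockouts only.

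The next were chr1:72330680-72330966 (RNAP 9.94 in Taf5l-KO, 4.14 in Taf6l-KO) and chr4:25208488-25209092 (9.93 and 7.63). Both also held H3K4me3 in all 3 genotypes, at 7.38, 11.1 and 11.5 in the first and at 9.12, 14.5 and 11.6 in the second, in the order wild type, Taf5l-KO and Taf6l-KO. Neither had a wild-type RNAP-ser5 or RNAP-ser2 peak. The pattern returned at chr10:95026497-95026899 (RNAP 9.81 and 9.12), chr11:74992102-74992429 (9.53 and 8.98) and chr3:36049941-36050218 (9.33 and 9.40), where H3K4me3 stood in every genotype and no phosphorylated form was listed in wild type. Each had RNAP-ser2 in a knockout, but only the chromosome 3 region had RNAP-ser5, in Taf5l-KO (4.94). At chr4:6118150-6118490 (9.52 and 6.82) H3K4me3 was again present throughout, but RNAP-ser5 was listed in wild type (3.67) as well as in Taf5l-KO (3.90).

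The remaining 3 of the 10 strongest members differed from this. At chr1:23975129-23975473 (RNAP 9.43 and 5.07) H3K4me3 was listed in Taf5l-KO (4.76) and Taf6l-KO (3.96) and not in wild type. At chr3:95074761-95075231 (9.42 and 6.09) no H3K4me3 was listed in any genotype, and wild-type cells had RNAP-ser5 (3.67) and RNAP-ser2 (4.48) despite the missing RNAP peak. At chr15:73506737-73507536 (9.33 and 5.04) there was no H3K4me3 but an Oct4 peak in Taf5l-KO (8.87). The 10 strongest members therefore include 7 with H3K4me3 in every genotype, 1 with H3K4me3 in the knockouts only and 2 without it. H3K4me3 in every genotype was listed at 67.2% of all Taf5l-KO RNAP peaks of any strength. Wild-type H3K4me3 was listed at 95.1% of those with a fold enrichment of 6 and over. The 7 of 10 is thus not above the background of strong peaks.

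H3K4me3 was listed at most members and at nearly the same share in each genotype. Wild-type H3K4me3 peaks overlapped 1911 members (64.1%, 62.3 to 65.8), Taf5l-KO peaks 63.7% (62.0 to 65.5) and Taf6l-KO peaks 63.7% (62.0 to 65.4). Over all Taf5l-KO RNAP peaks the shares were 71.8%, 70.7% and 70.0%, so the members were somewhat below this background. RNAP peaks shared with wild type stood at 81.2%, 79.9% and 79.5%, and Taf5l-KO only peaks at 28.0%, 27.0% and 23.1%. Among wild-type RNAP peaks listed in neither knockout, 9912 in number, the shares were 14.7%, 12.2% and 11.1%. The members thus stood nearer to the shared peaks than to peaks listed in a single genotype. These classes also differed in RNAP strength, with which the H3K4me3 share rose, so Taf5l-KO peaks are compared within ranges of strength below.

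**Figure D2:**
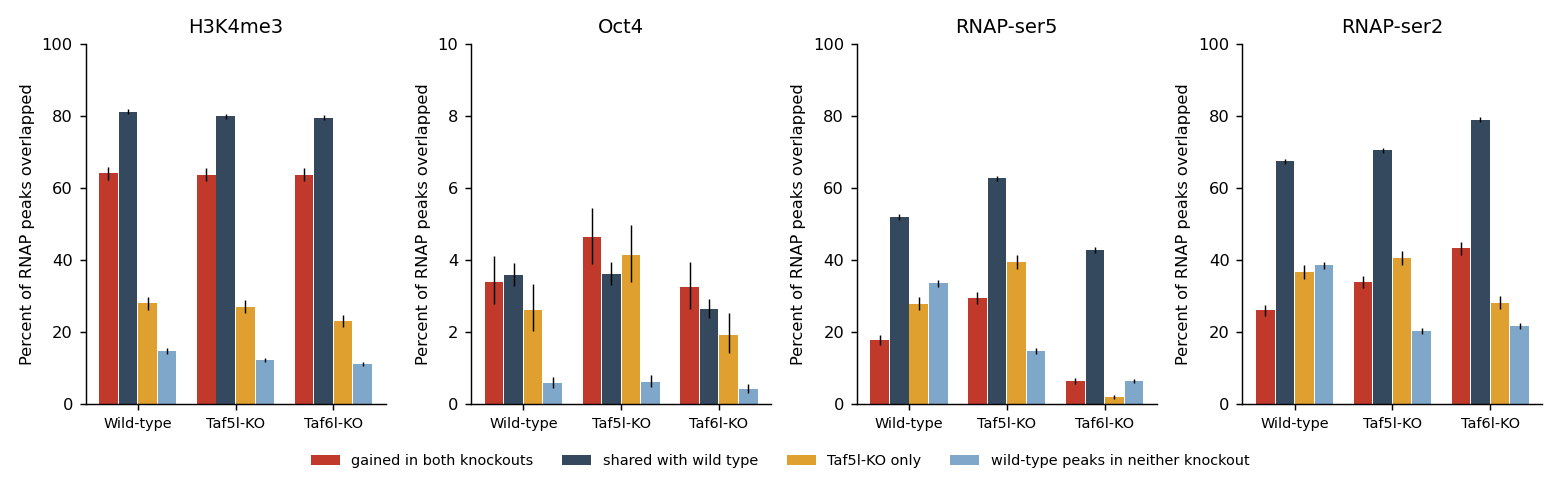
Percent of RNAP peaks overlapped by a peak of H3K4me3, Oct4 (axis to 10%), RNAP-ser5 and RNAP-ser2 in each genotype, for the 2982 members and 3 other classes of RNAP peak; error bars are exact 95% intervals. H3K4me3 at the members is level across the genotypes at 64.1%, 63.7% and 63.7%, while RNAP-ser2 goes from 26.0% in wild type to 43.3% in Taf6l-KO. Over all Taf5l-KO RNAP peaks, which are not drawn, RNAP-ser2 goes from 57.3% to 67.1%.

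Region by region, H3K4me3 was present in all 3 genotypes at 1745 members (58.5%, 56.7 to 60.3; 67.2% of all Taf5l-KO RNAP peaks). It was listed in both knockouts and not in wild type at 70 members (2.35%, 1.83 to 2.96; background 0.962%), and in wild type and neither knockout at 80 (2.68%, 2.13 to 3.33; background 2.08%). A polymerase peak new to both knockouts was therefore accompanied by an H3K4me3 peak new to both in few regions. The counts of this pattern and of the reverse were similar, but the former exceeded its background by more (2.35% against 0.962%) than the latter (2.68% against 2.08%). Of the former, besides the chromosome 1 region above, the strongest were chr10:119834157-119834364 (RNAP 6.20 in Taf5l-KO, H3K4me3 4.64 and 4.58 in the knockouts) and chr13:118018141-118018337 (6.06, H3K4me3 8.22 and 9.85). At least 1 genotype had H3K4me3 at 2066 members (69.3%; background 74.6%), which left 916 (30.7%; background 25.4%) without it.

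The H3K4me3 peaks at the members were strong for their lists. In wild-type cells their median fold enrichment was 7.78 and their median width 1424.5 bp, against 5.55 and 794 bp in the whole list and 8.52 and 1503 bp at the shared RNAP peaks. In Taf5l-KO the median enrichment was 9.26 at the members, 9.52 at the shared RNAP peaks and 6.29 in the whole list. In Taf6l-KO it was 9.38, 9.89 and 6.55. In each genotype, then, the members' H3K4me3 peaks were above the list and slightly below those of the shared RNAP peaks.

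Most of these H3K4me3 peaks had no listed wild-type RNAP peak, as the rule favours. Of the 1911 members at a wild-type H3K4me3 peak, 1701 (89.0%, 87.5 to 90.4) lay in an H3K4me3 peak that held no wild-type RNAP peak anywhere along it, and 210 (11.0%) in one that held a wild-type RNAP peak elsewhere. Among Taf5l-KO only peaks, which also lack wild-type overlap by choice, the former share was 78.9% (556 of 705). Wholly inside their H3K4me3 peak were 1437 members (75.2%). Counted over the wild-type H3K4me3 list, members touched 1886 of 31027 peaks (6.08%), and 14855 (47.9%) had a wild-type RNAP peak. Of the 16172 wild-type H3K4me3 peaks without a wild-type RNAP peak, 1681 (10.4%, 9.93 to 10.9) were touched by a member.

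Phosphorylated polymerase was listed less often at the members than over all Taf5l-KO RNAP peaks. RNAP-ser5 peaks overlapped 17.7% (16.4 to 19.1) of the members in wild type, 29.6% (27.9 to 31.3) in Taf5l-KO cells and 6.30% (5.46 to 7.24) in Taf6l-KO, against 43.7%, 54.7% and 32.1% of all Taf5l-KO RNAP peaks. RNAP-ser2 peaks overlapped 26.0% (24.5 to 27.6), 33.8% (32.1 to 35.6) and 43.3% (41.5 to 45.1), against 57.3%, 61.1% and 67.1%. These antibodies see the same protein as the one that chose the members, and the wild-type lists share an input, so the shares are not independent of the rule. The RNAP-ser2 share was higher in both knockout libraries than in wild type, in the same order as over all Taf5l-KO RNAP peaks. At the Taf5l-KO only peaks, which have no Taf6l-KO RNAP peak by choice, it was 36.7%, 40.6% and 28.2%. The RNAP-ser5 share was higher in Taf5l-KO and lower in Taf6l-KO than in wild type, but at the strongest members the Taf6l-KO share was the higher one. At the members of fold enrichment 6 and over it was 9.17% (6.32 to 12.8) in Taf6l-KO against 6.80% (4.36 to 10.0) in wild type, with overlapping intervals. Shared peaks of that strength had the same order, at 46.2% and 44.4%. From 5 to 6 the members had 5.65% in Taf6l-KO and 5.10% in wild type, and the shared peaks had the reverse order, at 36.9% and 42.5%. With −log10 q of at least 5 in all lists, which changes the set of members, their RNAP-ser5 share was 2.42% in Taf6l-KO against 0.358% in wild type. That cutoff also thinned the RNAP-ser5 lists, and no background was computed for it, so it does not show the effect of RNAP strength. The RNAP-ser5 libraries ran in the same order as the shares over all members, with 3871824 unique tags in wild type, 8807133 in Taf5l-KO and 1702363 in Taf6l-KO. The RNAP-ser2 libraries ran in the opposite order to their shares, with 6295522, 5390622 and 3842867. The part of depth in either pattern was not tested.

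The 2 forms followed different patterns across genotypes. RNAP-ser5 was most often listed in Taf5l-KO alone (436 members, 14.6%, background 13.8%) or in wild type and Taf5l-KO (342, 11.5%, background 15.1%). The first of these shares was near its background and the second below it. In all 3 genotypes RNAP-ser5 was listed at 60 members (2.01%, background 20.6%). It was listed in wild type and neither knockout at 123 (4.12%; background 4.88%) and in at least 1 genotype at 1089 (36.5%; background 65.9%). RNAP-ser2 was most often listed in Taf6l-KO alone (516, or 17.3%, above the background of 9.67%) or in all 3 genotypes (373, or 12.5%, background 42.3%). It was listed in wild type and neither knockout at 138 (4.63%, background 4.19%) and in at least 1 genotype at 1794 (60.2%, background 81.0%). Both forms thus had fewer members with a peak in every genotype than the background. Listed in both knockouts and not in wild type, the pattern that RNAP itself shows here by choice, were RNAP-ser5 at 44 members (1.48%, 1.07 to 1.98; background 5.27%) and RNAP-ser2 at 271 (9.09%, 8.08 to 10.2; background 9.21%). Neither share was above its background, so few members carried a phosphorylated form with the same pattern as total polymerase.

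**Figure D3:**
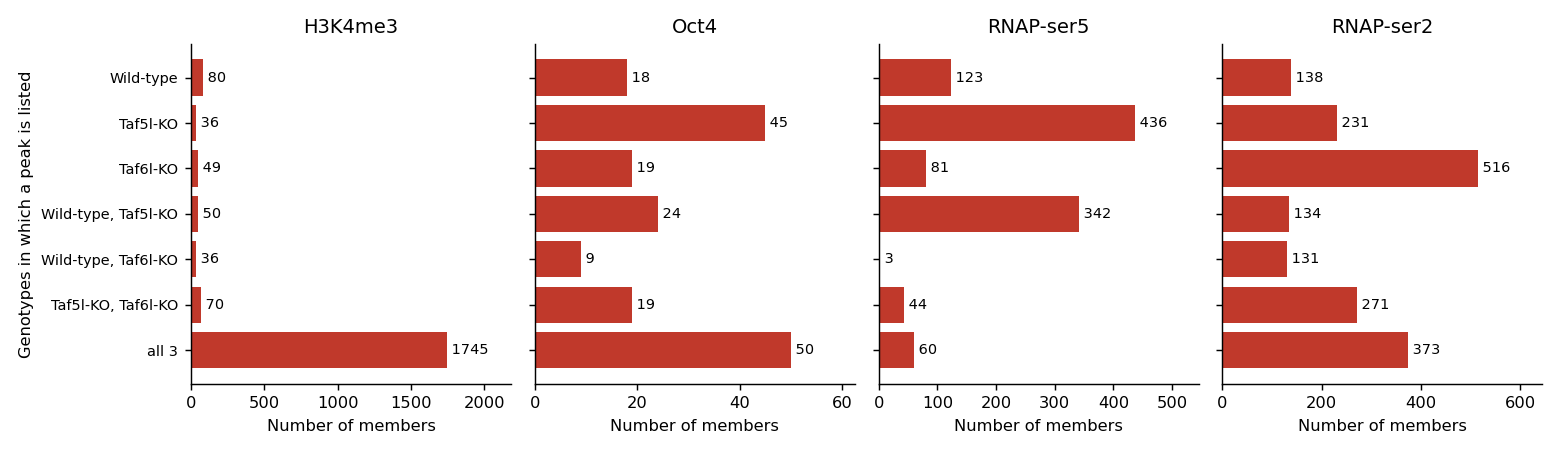
Number of members (horizontal axes, each with its own scale) by the genotypes in which a peak of H3K4me3, Oct4, RNAP-ser5 or RNAP-ser2 is listed; members with none are left out. H3K4me3 is dominated by the 1745 members with a peak in all 3 genotypes, RNAP-ser5 by Taf5l-KO (436) and RNAP-ser2 by Taf6l-KO (516). These are 58.5%, 14.6% and 17.3% of the members, against 67.2%, 13.8% and 9.67% of all Taf5l-KO RNAP peaks.

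Taking both forms together, wild-type cells had an RNAP-ser5 or RNAP-ser2 peak at 902 members (30.2%, 28.6 to 31.9; background 61.4%) although no total RNAP peak was listed there. Both forms were listed in wild type at 402 of these (13.5% of members; background 39.5%). The strongest of these after the chromosome 3 region above were chr8:87945346-87945944 (RNAP 8.57 in Taf5l-KO; wild-type RNAP-ser5 3.09 and RNAP-ser2 4.11) and chr16:20651450-20652259 (6.76; 3.03 and 4.26). At these members, absence from the wild-type RNAP list therefore went with a listed phosphorylated form in the same cells.

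In the knockouts, 42.7% of the members had at least 1 phosphorylated form in Taf5l-KO (background 68.7%) and 44.6% in Taf6l-KO (background 68.0%). Both forms together were listed at 619 members in Taf5l-KO (20.8%; background 47.2%) and at 149 in Taf6l-KO (5.00%; background 31.2%). Either form in both knockouts and neither in wild type was found at 309 members (10.4%, 9.29 to 11.5; background 9.46%), and both forms in both knockouts with neither in wild type at 15 (0.503%; background 1.31%). Of these 15, the strongest after the chromosome 2 region described first were chr3:9003673-9004825 (RNAP 8.15 and 8.52 in the knockouts, Taf5l first; RNAP-ser5 4.32 and 3.55; RNAP-ser2 4.10 and 4.90) and chr5:135461494-135462813 (6.98 and 6.47; 4.71 and 4.12; 4.78 and 3.78). Both held H3K4me3 in all 3 genotypes. Over any genotype, 1927 members (64.6%; background 83.7%) had a phosphorylated form.

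The phosphorylated peaks themselves were of ordinary strength. In wild type, RNAP-ser5 peaks at the members had a median fold enrichment of 3.77 against 3.51 in the whole list, and RNAP-ser2 peaks 4.01 against 3.79. In Taf5l-KO the medians were 4.26 against 4.08 for RNAP-ser5 and 3.98 against 3.78 for RNAP-ser2. In Taf6l-KO they were 3.83 against 3.95 and 3.82 against 3.68. Peaks at RNAP regions shared with wild type were stronger in every case, with the widest gap in Taf6l-KO (4.67 for RNAP-ser5 and 4.63 for RNAP-ser2).

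The 3 widest members were chr7:26492363-26497510 (5148 bp), chr4:10911824-10916104 (4281 bp) and chr2:51966315-51970101 (3787 bp), with modest RNAP enrichments of 4.24, 4.53 and 4.07 in Taf5l-KO. All 3 carried wild-type RNAP-ser5 (3.79, 3.92 and 4.43) and wild-type RNAP-ser2 (5.52, 4.07 and 4.61), and RNAP-ser2 in both knockouts. H3K4me3 was listed at the first only, in wild type (4.31) and Taf5l-KO (4.65). Taf6l-KO RNAP covered 12.7%, 23.9% and 37.0% of their length.

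Oct4 was rare at the members. Wild-type Oct4 peaks overlapped 101 members (3.39%, 2.77 to 4.10), Taf5l-KO peaks 138 (4.63%, 3.90 to 5.44) and Taf6l-KO peaks 97 (3.25%, 2.65 to 3.95), against 3.44%, 3.84% and 2.64% of all Taf5l-KO RNAP peaks. These shares lay close to the background. With 50% of the member's width asked of every overlap they were 0.402%, 0.715% and 0.492%. Oct4 peaks had median widths of 154, 170 and 159 bp and members one of 373 bp. Most Oct4 peaks were thus too narrow to cover 50% of a member of median width, and this setting does not show where Oct4 lay. Of the wild-type Oct4 list, 102 of 2502 peaks (4.08%) met a member, as did 142 (4.80%) in Taf5l-KO and 101 (5.03%) in Taf6l-KO. The summits of 76, 108 and 77 of these lay inside the member (74.5%, 76.1% and 76.2%), so the overlap was mostly with the body of the Oct4 peak.

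At least 1 genotype had Oct4 at 184 members (6.17%, 5.33 to 7.09; background 5.43%). Oct4 was listed in all 3 genotypes at 50 members (1.68%; background 1.57%), in both knockouts and not in wild type at 19 (0.637%, 0.384 to 0.993; background 0.364%) and in wild type and neither knockout at 18 (0.604%; background 0.881%). The strongest members with Oct4 throughout were chr14:49618318-49618847 (RNAP 7.37 in Taf5l-KO; Oct4 10.1, 13.5 and 9.44, wild type first and Taf6l-KO last), chr2:122195960-122196335 (7.23; 8.84, 13.8 and 13.0) and chr10:5971067-5971405 (6.20; 9.43, 6.73 and 5.86). H3K4me3 was listed at the first of these and at neither of the others. With Oct4 in the knockouts only, the strongest were chr17:33736628-33737028 (RNAP 6.24; Oct4 7.76 and 11.1), chr11:79459868-79460407 (5.46; 13.3 and 8.54) and chr1:54642273-54642500 (4.95; 12.7 and 8.33). The first 2 of these had H3K4me3 in a single knockout and the last had none.

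H3K9ac, Myc and the tagged SAGA subunits were sparse at the members. Wild-type H3K9ac was listed at 104 members (3.49%, 2.86 to 4.21), against 18.7% of all Taf5l-KO RNAP peaks and 25.1% of those shared with wild type. In the knockouts H3K9ac was listed at 1 member in Taf5l-KO (background 0.511%) and at 22 in Taf6l-KO (0.738%; background 4.18%), from lists of 110 and 899 peaks against 4133 in wild type. Myc was listed at 10 members in wild type (background 2.14%), 1 in Taf5l-KO (background 0.0962%) and 1 in Taf6l-KO (background 0.0405%). The members were below the background for wild-type H3K9ac and Myc alike.

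TAF6L-FB regions, joined over both lines and free of BirA peaks, overlapped 109 members (3.66%, 3.01 to 4.39; background 4.93%; 5.72% of shared peaks). With 1 line left out the share was 1.21% or 2.55%. TAF5L-FB regions overlapped 9 (0.302%; background 0.476%) and BirA peaks 0, which by the limit of 3 counts allows a share of up to 0.101% (background 0%). The strongest members at TAF6L-FB regions were chr7:116077811-116078098 (RNAP 8.22 in Taf5l-KO and 6.58 in Taf6l-KO), chr1:196802489-196802871 (7.35 and 8.87) and chr2:28323416-28323680 (6.96 and 4.93). All 3 held H3K4me3 in every genotype, at 12.6, 9.31 and 12.6 in wild type.

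The members with and without H3K4me3 differed in their phosphorylated polymerase. At the 1745 with H3K4me3 in all 3 genotypes, RNAP-ser5 was listed at 6.53% in wild type, 19.7% in Taf5l-KO and 6.93% in Taf6l-KO, against 41.0%, 54.3% and 42.5% of all Taf5l-KO RNAP peaks with such H3K4me3. RNAP-ser2 was listed at 13.1% (11.6 to 14.8), 25.4% (23.4 to 27.5) and 46.8% (44.5 to 49.2), against 56.7%, 62.9% and 76.5%. Wild-type cells had either form at 285 of them (16.3%, 14.6 to 18.2; background 60.0%). Taf5l-KO only peaks with such H3K4me3 were also far below this background, at 62 of 493 (12.6%, 9.78 to 15.8). The order of the 3 RNAP-ser2 shares was the same at the members and over all RNAP peaks with such H3K4me3, and the members were lower in each library.

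Wild-type H3K9ac was listed at 102 of these 1745 members (5.85%; background 27.4%) and TAF6L-FB at 51 (2.92%; background 5.55%). Of the 104 members with wild-type H3K9ac, then, all but 2 had H3K4me3 in every genotype. The RNAP peaks of the 1745 members had a median fold enrichment of 4.76 and a median width of 369 bp.

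At the 916 members with no H3K4me3 in any genotype, RNAP-ser5 was listed at 39.6% (36.4 to 42.9) in wild type, 50.4% (47.1 to 53.7) in Taf5l-KO cells and 6.22% (4.75 to 7.99) in Taf6l-KO, against 53.5%, 60.5% and 11.4% of all Taf5l-KO RNAP peaks without H3K4me3. RNAP-ser2 was listed at 48.5% (45.2 to 51.8), 49.9% (46.6 to 53.2) and 41.2% (37.9 to 44.4), against 61.9%, 60.9% and 49.7%. Wild-type cells had either form at 503 (54.9%, 51.6 to 58.2; background 67.9%). Most of the members without H3K4me3 thus had a phosphorylated form listed in wild type, but fewer than the background. Taf5l-KO only peaks without H3K4me3 also stood at 54.9%. The RNAP-ser2 share was lowest in Taf6l-KO at these members, as over all RNAP peaks without H3K4me3. Oct4 was listed at 6.66%, 8.95% and 6.11% of them in the same order (background 5.57%, 7.22% and 4.50%) and TAF6L-FB at 36 (3.93%; background 2.87%). Their median RNAP fold enrichment was 4.10 and their median width 393 bp, and the nearest wild-type H3K4me3 peak lay a median of 8732.5 bp away, between 23 and 255465 bp.

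By H3K4me3 and Oct4 in any genotype, 1983 members (66.5%; background 71.4%) had H3K4me3 alone, 83 (2.78%; background 3.12%) had both, 101 (3.39%; background 2.31%) had Oct4 alone and 815 (27.3%; background 23.1%) had neither. No peak of any other antibody in any genotype was found at 201 members (6.74%, 5.87 to 7.70; background 3.52%). The strongest of these were chr4:124495190-124495447 (RNAP 7.88 in Taf5l-KO and 4.91 in Taf6l-KO), chr6:6157296-6157585 (7.09 and 3.61) and chr6:86971804-86972087 (7.06 and 6.78). These regions rest on the 2 RNAP libraries alone.

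Because shared peaks were stronger, the members were also compared within ranges of Taf5l-KO fold enrichment, which were set after the values had been seen. Members made up 17.2% of the Taf5l-KO peaks under 4, 20.4% of those from 4 to 5, 17.0% from 5 to 6 and 6.10% from 6 upwards, with 786, 1309, 549 and 338 members. Wild-type H3K4me3 was listed at 46.6%, 62.8%, 77.4% and 88.2% of the members in these ranges, against 47.0%, 63.4%, 83.9% and 95.1% of all Taf5l-KO RNAP peaks. The share thus rose with strength and stayed near the background in the lower 2 ranges. Shared peaks were above the members in each range, at 61.5%, 70.9%, 87.3% and 95.7%. Taf5l-KO only peaks were below the members, at 21.6%, 32.7%, 52.6% and 50.0%.

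Wild-type RNAP-ser5 or RNAP-ser2 went the other way. It was listed at 46.9%, 29.1%, 16.9% and 17.5% of the members in the 4 ranges, against a background of 65.7%, 58.4%, 51.1% and 67.2%. Shared peaks stood at 80.1%, 72.4%, 60.9% and 70.7%. Taf5l-KO only peaks, which also lack wild-type RNAP by choice, fell as the members did, at 50.9%, 38.8%, 13.0% and 15.0%. The last of these ranges held 20 such peaks. Wild-type H3K9ac was listed at 1.15%, 2.90%, 4.19% and 10.1% of the members and at 5.21%, 10.5%, 21.5% and 47.8% of the shared peaks. Strong gained peaks thus mostly held wild-type H3K4me3, though below the background in the top range (88.2% against 95.1%). Most had no phosphorylated form listed in wild-type cells, which also held for the strong Taf5l-KO only peaks. Total RNAP is missing there by the rule, and the shares of the phosphorylated forms are not independent of it. When −log10 q of at least 5 was asked of both knockout RNAP peaks, a setting also added after the data were seen, 264 members remained. Their background is the 6040 Taf5l-KO peaks of that strength that overlap a Taf6l-KO peak of that strength. Wild-type H3K4me3 was listed at 93.9% of the 264 (background 97.1%). RNAP-ser5 was listed at 4.17% in wild type, 36.7% in Taf5l-KO and 11.0% in Taf6l-KO (background 44.6%, 74.4% and 47.9%), and RNAP-ser2 at 15.2%, 47.7% and 69.3% (background 66.8%, 79.3% and 90.0%). These members thus had H3K4me3 near the background and both phosphorylated forms below it in each library.

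**Figure D4:**
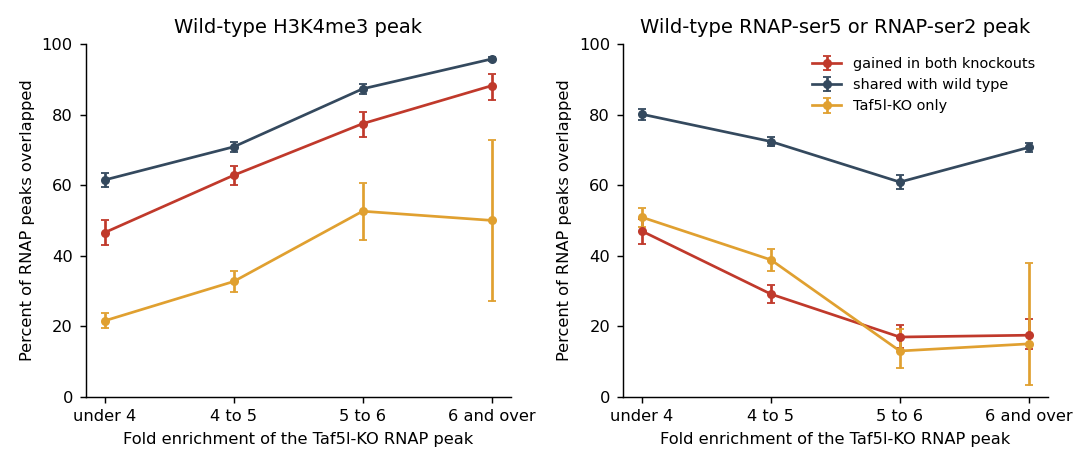
Percent of RNAP peaks overlapped by a wild-type H3K4me3 peak (left) and by a wild-type RNAP-ser5 or RNAP-ser2 peak (right), by fold enrichment of the Taf5l-KO RNAP peak, for members, shared peaks and Taf5l-KO only peaks, with exact 95% intervals. At the members H3K4me3 goes from 46.6% to 88.2% and the phosphorylated forms from 46.9% to 17.5%. At the Taf5l-KO only peaks the phosphorylated forms go from 50.9% to 15.0%.

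Members were spread over the genome. Their median distance to the nearest wild-type RNAP peak was 10900 bp, against 3753 bp for Taf5l-KO only peaks, and the farthest lay 698065 bp away. Within 1000 bp of a wild-type RNAP peak were 460 members (15.4%) and 23.2% of the Taf5l-KO only peaks, and within 10000 bp 1438 (48.2%) and 67.3%. Members thus stood farther from wild-type polymerase peaks than peaks seen in Taf5l-KO only, as a description of the lists that chose them.

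**Figure D5:**
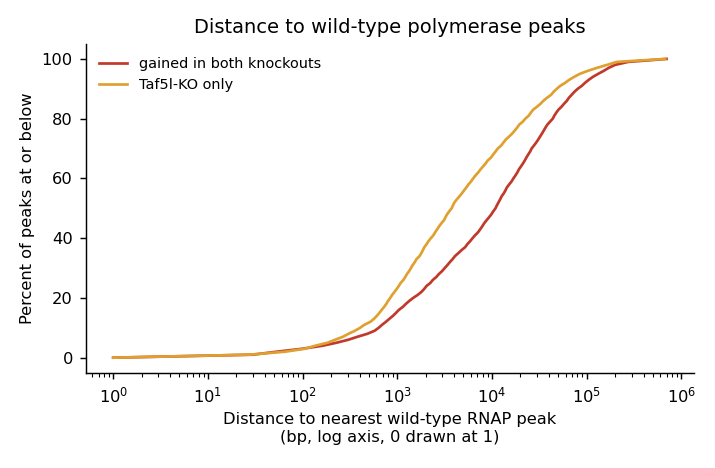
Cumulative share (percent) of members and of Taf5l-KO only peaks by distance to the nearest wild-type RNAP peak in bp (log axis, 0 drawn at 1). The median is 10900 bp for the members and 3753 bp for the Taf5l-KO only peaks.

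On each chromosome, members made up between 12.5% of the Taf5l-KO RNAP peaks (chromosomes 16 and 3, with 90 of 722 and 128 of 1024) and 18.9% (17.0 to 21.0; chromosome 11, 285 of 1506). With neighbours less than 10000 bp apart joined into runs, 2534 members stood alone, 183 runs held 2 and 26 runs held 3 or more. The longest runs held 4 members each. They were chr1:72255544-72263557, chr1:158587506-158599909, chr15:25688442-25710904 and chr16:30060529-30070857. Each of these also held at least 1 wild-type RNAP peak between the members, 3 of them on chromosome 15, and all 4 members of the chromosome 15 run carried wild-type H3K4me3.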

How the data were processed

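The samples were 32 ChIP-seq libraries, and 26 peak lists, 1 per immunoprecipitated library with nothing pooled, were used. The submitters' processing notes name Bowtie2 2.3.2, deepTools 2.5.3 and the build mm9. Per the file headers, the authors ran MACS2 2.1.1.20160309 with an input as control, a q cutoff of 0.05 and 1 tag per position, and scaled the larger library down to the smaller. Broad linking, with a second cutoff of 0.1, was on for RNAP, RNAP-ser5, RNAP-ser2, H3K4me3 and H3K9ac and off for the others, per the file headers. The deposited lists give the pileup, a signal that depends on depth, the fold enrichment, a ratio to the local background, and −log10 p and −log10 q per peak.

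Overlap means at least 1 bp and was computed in Python 3.11.15 with numpy 2.4.6 and pandas 2.3.3, with intervals from scipy 1.17.1, and was tested on simulated data. Background is the same share over all 19758 Taf5l-KO RNAP peaks on chromosomes 1 to 19, or over those in the same H3K4me3 class or strength range. No p-value was computed. Where several peaks met a member, the highest fold enrichment is given. The members and the classes compared were chosen with earlier results of these data known. Regions named are the 10 strongest by Taf5l-KO RNAP fold enrichment, the 3 widest, the 3 strongest of each class described, the runs with most members and the edges of the rule. The edge regions given are part of those listed. Alternatives were a −log10 q of at least 5, 50% coverage, a distance of 1000 bp from wild-type peaks, merging of peaks less than 1000 bp apart, counting in the Taf6l-KO list and leaving out a TAF6L-FB line. No gene was assigned, and the state of the Taf5l and Taf6l genes was not analysed here.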

Additional observations from a re-analysis of the deposited data

How the results depend on the processing

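No paired analysis was possible because there is 1 library per antibody and genotype. The number of members was 2235 with −log10 q of at least 5 in all lists, 4473 with 50% coverage (which also admits members less than 50% covered by wild-type RNAP), 2522 without wild-type RNAP within 1000 bp, 2653 after merging and 3217 counted in the Taf6l-KO list. Shares below are in the order wild type, Taf5l-KO, Taf6l-KO. With −log10 q of at least 5 in all lists, which lets weak wild-type RNAP peaks lie at a member, H3K4me3 was at 89.8%, 91.7% and 91.2%, Oct4 at 2.24%, 2.01% and 2.06%, RNAP-ser5 at 0.358%, 5.23% and 2.42% and RNAP-ser2 at 2.15%, 5.10% and 14.1%. With 50% coverage, H3K4me3 was at 72.7%, 72.5% and 72.5%, Oct4 at 0.402%, 0.715% and 0.492%, RNAP-ser5 at 10.8%, 24.3% and 2.50% and RNAP-ser2 at 18.8%, 31.5% and 38.0%. Without wild-type RNAP within 1000 bp, H3K4me3 was at 69.0%, 69.1% and 69.5%, RNAP-ser5 at 12.6% and 24.4% in wild type and Taf5l-KO, and RNAP-ser2 at 20.1%, 29.8% and 41.3%. After merging, H3K4me3 was at 67.4%, 67.8% and 68.2%, and in wild type and Taf5l-KO RNAP-ser5 was at 15.0% and 26.7% and RNAP-ser2 at 23.0% and 31.2%. Counted in the Taf6l-KO list, H3K4me3 was at 61.2%, 60.5% and 60.1%, Oct4 in Taf5l-KO at 3.79%, and in wild type and Taf5l-KO RNAP-ser5 was at 20.0% and 32.8% and RNAP-ser2 at 28.7% and 37.2%. When both knockout RNAP peaks had −log10 q of at least 5 and the wild-type list was used in full, a setting chosen after seeing the data, 264 members remained, with H3K4me3 at 93.9%, 94.3% and 92.4%, Oct4 at 1.14%, 1.14% and 1.52%, RNAP-ser5 at 4.17%, 36.7% and 11.0% and RNAP-ser2 at 15.2%, 47.7% and 69.3%. The TAF6L-FB share was 1.21% to 2.55% with a line left out. The cause of these shifts was not tested. In each of these settings the RNAP-ser2 share was higher in both knockouts than in wild type. RNAP-ser5 in Taf6l-KO was below wild type as reported and with 50% coverage. It was also below wild type without wild-type RNAP within 1000 bp (6.07% against 12.6%) and after merging (6.18% against 15.0%). Counted in the Taf6l-KO list, it was 6.28% against 20.0%. Only under the 2 settings of −log10 q was it above wild type.

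A missing peak is not missing signal, and the wild-type RNAP library was the shallowest of its antibody, though its peak list was the longest. Depth and genotype cannot be told apart with 1 library each. Fold enrichments of different lists are not compared as levels. Peak lists alone do not show whether fewer cells or less signal per cell lies behind a missing peak.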

Other observations

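Wild-type H3K4me3 was listed less often at the members of chromosome 1 than elsewhere. It overlapped 105 of the 234 members there (44.9%, 38.4 to 51.5), against 55.5% (chromosome 3) to 72.6% (chromosome 8) on the other chromosomes. Over all Taf5l-KO RNAP peaks the share on chromosome 1 was 59.3%, against 67.4% to 77.5% elsewhere, and over those shared with wild type 71.3%, against 77.9% to 87.5%. The lower share on chromosome 1 was thus also present in RNAP peaks that were not gained. It was singled out after the values had been seen.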
